A study of Mus musculus with 6 samples.

Results

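RNA from the infrapatellar fat pad of mice was set against RNA from the Achilles tendon, with 2 libraries of each. The libraries were taken by the label that names their tissue, and they are 4 of the 6 in the series. The remaining pair is from the rectus femoris, a thigh muscle, and it entered the fit to help estimate the spread between libraries. That pair thereby also entered the filter on low counts and the scaling of the libraries. Genes were joined by Ensembl identifier, and the 16964 listed in both count tables entered, of which 15856 passed a filter on low counts and were tested.

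The series title speaks of female mice, and the labels used here give no strain, age, genotype or number of animals. Both fat pad titles carry the name of letrozole, an aromatase inhibitor, and neither tendon title does, while no library is labelled as treated or as control. An effect of such treatment on the fat pad and an effect of the tissue therefore cannot be told apart. The titles of both tissues end in a word saying that something was combined, without saying what. A code within the titles is shared by the libraries of a tissue and differs between the tissues. The labels do not say what the code marks, and whatever it marks cannot be told apart from the tissue. The authors' deposited tables set library 1 against library 2 within each tissue, so the libraries of a tissue may stand for different conditions that the labels do not name. They are treated here as replicates of the tissue. Nothing says that they came from separate animals, so a p-value here reflects the scatter of the libraries sequenced, and that scatter may be technical or a difference in condition. A source label and a tissue label give fat pad for every library, and the marker genes below differed by the label that names separate tissues.

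The infrapatellar fat pad is a body of white adipose tissue between the kneecap ligament and the synovial membrane, and the synovium lines its joint side. Adipocytes there store triglyceride in lipid droplets and secrete hormones such as adiponectin. The Achilles tendon joins the calf muscles to the heel bone and is made mostly of parallel type I collagen fibrils, laid down by tenocytes under the transcription factors scleraxis and Mohawk.

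Expression is given as CPM, which are counts scaled to library size with trimmed mean of M-values (TMM) factors, for library 1 and then library 2 of a tissue. A log2 fold change is fat pad over tendon with its standard error (SE), from edgeR's quasi-likelihood test, and a gene was called at a Benjamini-Hochberg adjusted p under 0.05. Total counts were 83132413 and 106319037 in the fat pad libraries and 59042675 and 62063826 in the tendon libraries. edgeR called 4308 genes higher in the fat pad (27.2% of those tested) and 4972 lower (31.4%), together 58.5%. The libraries of the 2 tissues did not overlap for 12919 genes (81.5%), so that neither a call nor separated libraries set a gene apart here. At least 2-fold differences made up 3557 of the higher and 4242 of the lower calls, and at least 32-fold differences 264 and 487. Over all genes tested the median log2 fold change was -0.01, with quartiles at -1.38 and 1.24. The median shifted by -0.21 when libraries were scaled by their totals and by 0.11 with DESeq2's size factors, and the fold changes below are relative to TMM.

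Gene length moved with the comparison. Among 436 genes with at most 1000 exonic bases the median log2 fold change was 1.69, with 52.1% called higher and 13.1% lower. Among 2685 genes over 8000 bases it was -0.92, with 11.7% called higher and 52.9% lower. Within a tissue, library 2 over library 1 had medians of 0.16 and -0.10 in these length classes in the fat pad and 0.10 and -0.13 in the tendon. A second fit, added after seeing the data, took the length trend of each library out as an offset. It called 4008 genes higher and 4472 lower. It is named below where it moved the larger of a list's counts by over 1.5 times, or where it ended or made the call of a named gene. The authors' TPM columns gave another balance. limma on those called 1618 genes higher and 8054 lower, but in the tendon and muscle files these columns do not follow the counts (the library ratios of counts and of TPM had r = -0.226 over 13151 tendon genes and 0.994 over 13718 fat pad genes), and the reason was not tested. The lists whose larger count the TPM columns moved most are named with their counts below. The joined TPM columns held 14929 genes, and list members absent from them are not in those counts. A smaller count there can thus come from absent members as well as from lost calls. The offset removes any trend with length, also one that belongs to the tissues, and the part of RNA quality in the trend was not tested.

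**Figure D1:**
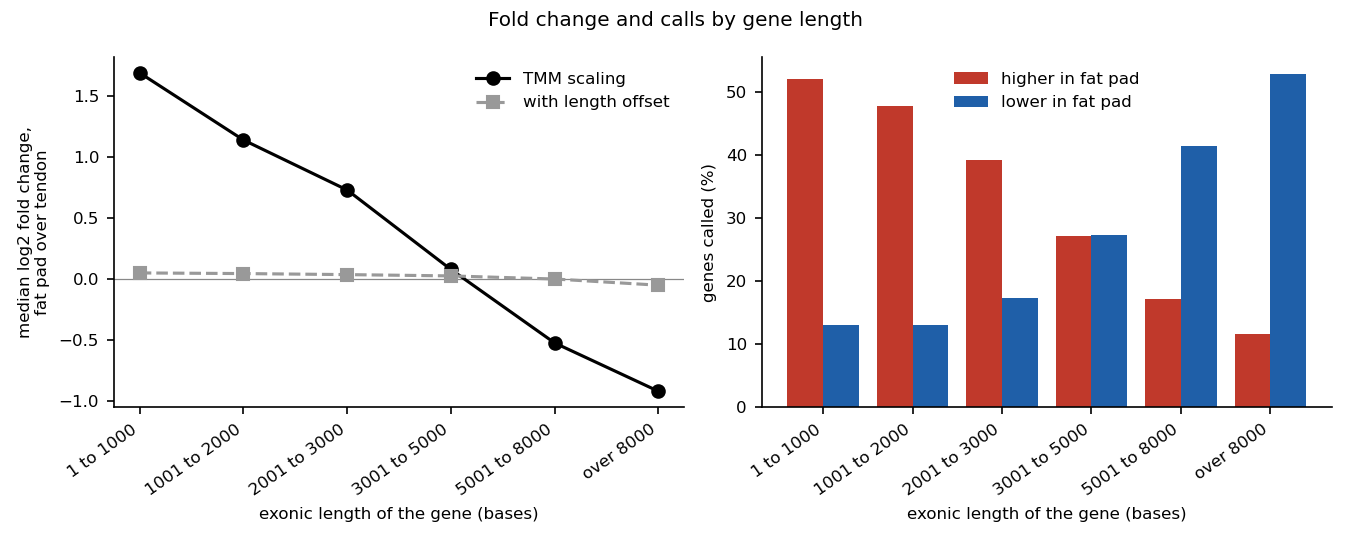
Median log2 fold change of fat pad over tendon (left) and the percentage of genes called higher or lower by edgeR (right) in 6 classes of exonic length in bases. The median falls from 1.69 in the shortest class to -0.92 in the longest, and the offset leaves class medians from -0.05 to 0.05.

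Gene lists of tissue functions and cell types were drawn up with earlier results of these data known, and are described by counts and medians. The counts of each list are to be read against the 27.2% of all genes called higher and the 31.4% called lower. The lists with the highest medians were of neutrophil granules, red cell precursors, lymphocytes, macrophages, chemokines and adipocytes, and those with the lowest were of muscle, tendon cells, Schwann cells and collagens.

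**Figure D2:**
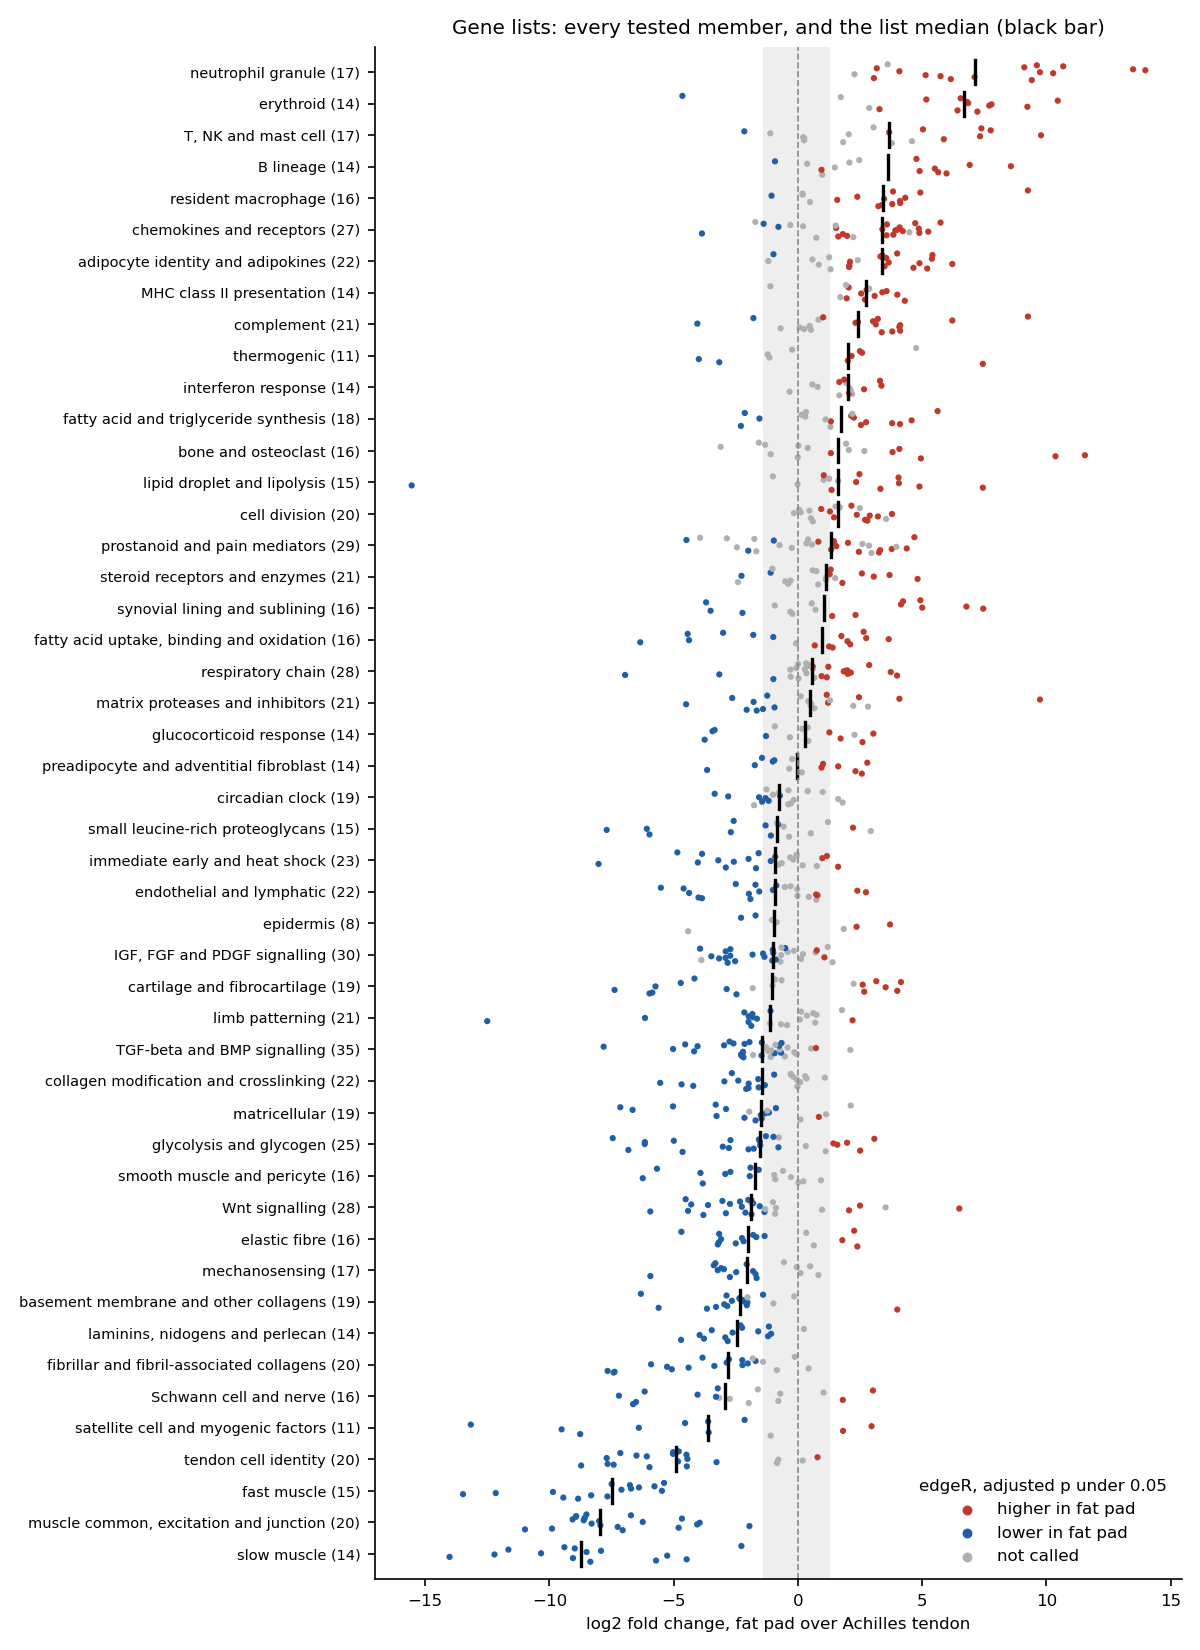
Log2 fold change of fat pad over tendon for each tested member of 48 gene lists, with the number of tested members in brackets, coloured by edgeR's call at an adjusted p under 0.05. Black bars are list medians, the dashed line is the median of all genes tested (-0.01) and the grey band their quartiles (-1.38 to 1.24), so that lists from neutrophil granule (7.11) to slow muscle (-8.74) can be read against the background.

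Adipocyte genes stood higher in the fat pad. Of the 22 genes of adipocyte identity and hormones, all were tested, 15 were called higher and 1 lower, with a median log2 fold change of 3.36. Adipoq, which encodes the hormone adiponectin, had 5314 and 5513 CPM in fat pad and 269 and 24.9 CPM in tendon. Both fat pad values lay far above both tendon values, with a log2 fold change of 5.20 ± 1.16 (edgeR adjusted p = 0.00764). Cfd, which encodes adipsin, the protease of the alternative complement pathway, had the highest fold change of the list, at 51763 and 58579 CPM against 1303 and 186 (6.21 ± 1.18). Retn, the gene of resistin, had 2111 and 2847 CPM against 106 and 10.8 (5.41 ± 1.12). Nrg4, a secreted ligand of brown and white fat, had 171 and 104 CPM against 4.16 and 2.39 (5.39 ± 0.46). The tendon libraries differed from each other in this list, with library 2 below library 1 by a median of 2.48 on the log2 scale, and the summed CPM was 10311 and 4674 there. Without tendon library 1, Plin1, Cebpa, Lipe, Scd1 and Fasn, described next as not called, passed the test. The list's counts were the same with the length offset.

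Some genes of the same cells were not called. Leptin, Lep, the hormone that signals fat stores, had 20.5 and 11 CPM in the fat pad and 65.7 and 6.2 in the tendon, and the libraries overlapped (-1.19 ± 0.91, edgeR adjusted p = 0.295). Without tendon library 2 Lep was called lower, at -2.07. Plin1, the main droplet coat of adipocytes, had 353 and 429.8 against 306 and 21.4 (1.26 ± 1.07, adjusted p = 0.343). Cebpa, a transcription factor of fat cell differentiation, had 149 and 156 against 147 and 23.5 (0.84 ± 0.76), while its partner Pparg was called higher at 233 and 176 against 32.6 and 8.38 (3.32 ± 0.62). Slc2a4, the insulin-responsive glucose transporter of both fat and muscle, was the called exception, lower in the fat pad at 159 and 143 against 281 and 316 CPM (-0.99 ± 0.22). In bulk tissue, fewer cells of a type and less RNA per cell cannot be told apart, here and in every list that follows.

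Of the 15 lipid droplet genes, 9 were called higher and 1 lower, with a median of 1.62. Cidea, a droplet protein best known from brown fat, had the highest fold of the list at 189.6 and 311 CPM against 2.07 and 0.797 (7.44 ± 0.69, edgeR adjusted p = 0.000184). Cidec, which fuses droplets in white adipocytes, had 3156 and 2572 against 175 and 18.2 (4.89 ± 1.09). Plin2, a droplet coat found in most cells, had 549.6 and 765 against 51.6 and 27.9 (4.05 ± 0.38). Pnpla2, the lipase that starts triglyceride breakdown, had 2071 and 1412 against 441 and 186 (2.47 ± 0.46), and its inhibitor G0s2 had 322 and 319 against 26.7 and 11.6 (4.06 ± 0.47). The next lipase of that pathway, Lipe, was not called at 539.8 and 402 against 252 and 54.7 (1.62 ± 0.67). Lipe was called higher with DESeq2, at 1.74, and with the length offset, at 2.14. Fitm1, a droplet-forming protein of muscle, had 0 counts in both fat pad libraries and 70.4 and 92.8 CPM in the tendon, at least 2728-fold lower if each fat pad library is set to 3 counts. Its relative Fitm2 stood at 108 and 105 and 119 and 96.1 CPM, with overlapping libraries.

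Among 18 genes of fatty acid and triglyceride synthesis 9 were called higher and 3 lower, with a median of 1.74. Thrsp, a nuclear protein that responds to feeding and thyroid hormone, had 1710.1 and 3851 CPM against 94.8 and 18.2 (5.62 ± 0.97, edgeR adjusted p = 0.00242). Elovl6, which lengthens palmitate, had 146 and 455 against 19.5 and 5.77 (4.57 ± 1.05), and the last enzyme of triglyceride synthesis, Dgat1, had 455 and 466 against 51 and 15.5 (3.79 ± 0.57). Fasn, the fatty acid synthase itself, was not called, and tendon library 1 lay between the fat pad libraries at 655 and 1357 CPM, with the tendon at 819.8 and 110.2 (1.11 ± 1.04). Scd1, the desaturase of adipose tissue and liver, had 10845 and 15435 against 5344 and 423 and was not called (2.19 ± 1.12), while its relative Scd2 was called lower at 18.5 and 64.5 against 268 and 98.1 (-2.14 ± 0.67). The Scd2 call was lost in the fit of the 4 libraries alone, with the length offset, and without fat pad library 1 or tendon library 1. Acacb, the acetyl-CoA carboxylase of oxidative tissue, was called lower at 49.2 and 34.6 against 199 and 213 (-2.30 ± 0.25). In the tendon, library 2 was below library 1 on this list by a median of 1.26, and in the fat pad library 2 was above library 1 by 0.49.

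The list of fatty acid uptake and oxidation split, with 9 of 16 called higher and 6 lower and a median of 0.96, and 5 and 8 in the TPM columns. The fatty acid binding proteins went in opposite directions. Fabp4, the adipocyte member, had 10128 and 10006 CPM against 1141 and 459 (3.65 ± 0.56, edgeR adjusted p = 0.00138), and Fabp5, found in skin, fat and macrophages, had 115 and 180.0 against 19.6 and 24.5 (2.75 ± 0.35). Fabp3, the heart and muscle member, had 5.43 and 9.28 against 179.6 and 128 and was called lower (-4.38 ± 0.34). Carnitine palmitoyltransferase, the gate for fatty acids into mitochondria, differed by isoform as well. Cpt1b, the muscle form, had 2.46 and 1.74 against 175 and 166 (-6.35 ± 0.28), and the liver form Cpt1a had 48.8 and 37.1 against 49.4 and 41 with no call (-0.08 ± 0.20). With the length offset Cpt1a was called higher, at 0.64 (edgeR adjusted p = 0.0219). The inner membrane partner Cpt2 had 204 and 198 against 54.7 and 46.3 and was called higher (1.99 ± 0.19). Slc27a1, a fatty acid transporter, was higher at 1434 and 614 against 239.6 and 88.2 (2.64 ± 0.61), whereas Ppard, a nuclear receptor that drives fatty acid oxidation, was lower at 1.37 and 1.53 against 31.1 and 32 (-4.44 ± 0.20).

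**Figure D3:**
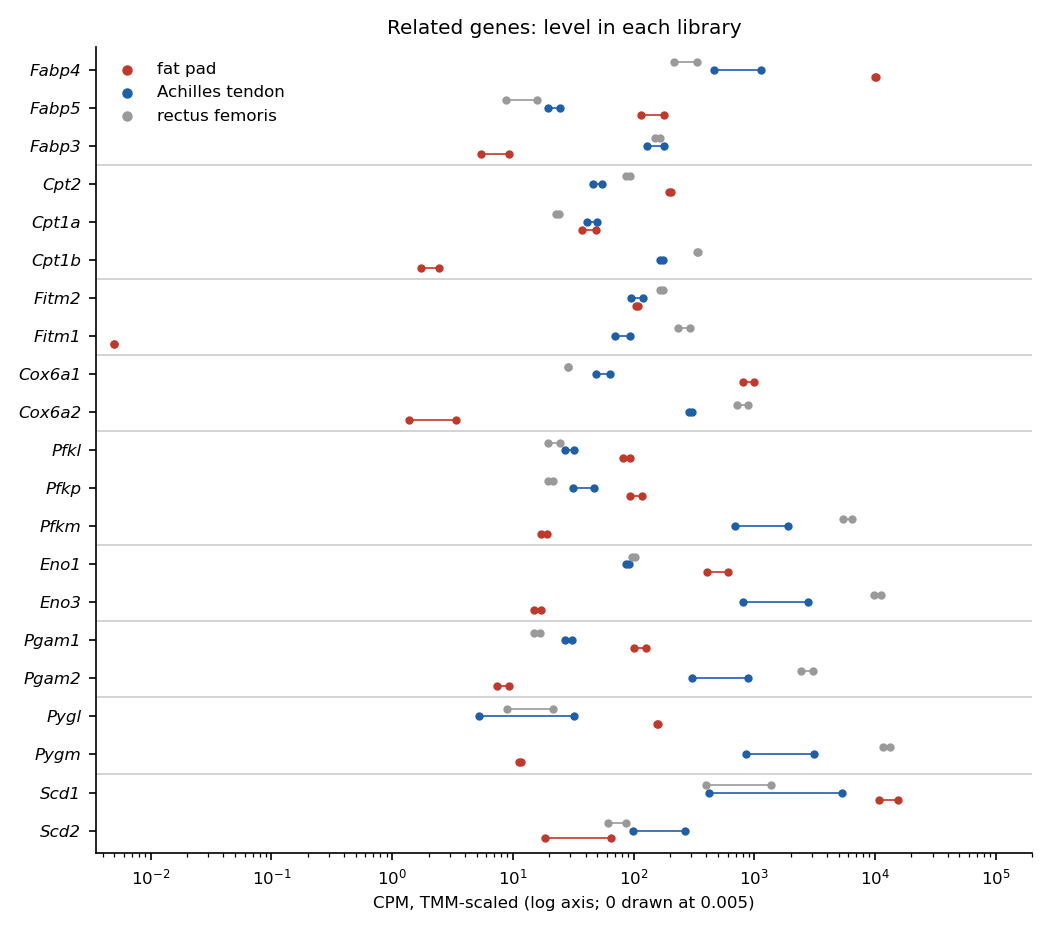
TMM-scaled CPM on a log axis, 0 drawn at 0.005, of related genes in each of the 6 libraries, with 2 joined points per tissue. Fabp4, Cox6a1, Pfkl, Eno1, Pgam1 and Pygl lie to the right of the tendon in the fat pad, and Fabp3, Cpt1b, Fitm1, Cox6a2, Pfkm, Eno3, Pgam2 and Pygm to the left.

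Of 12 thermogenic genes 11 were tested, 5 were called higher and 2 lower. The higher count was 3 with the length offset, in the TPM columns, there with 5 lower, and without fat pad library 2. Ucp1, the uncoupling protein that defines brown and beige fat, was low at 0.0885 and 1.46 CPM against 0 and 0.055 and was not called. Its fat pad libraries differed widely from each other. Dio2, which activates thyroid hormone, was lower at 2.92 and 1.31 against 20.9 and 46.1 (-3.99 ± 0.65). Genes of fat progenitors and vessel-associated fibroblasts split, with 6 of 14 called higher, 5 lower and a median of -0.04, and 3 and 7 in the TPM columns. Ly6a, the surface antigen Sca-1, stood at 845 and 938 CPM against 126 and 132 (2.79 ± 0.40), and Dlk1, an inhibitor of adipocyte differentiation, at 0.243 and 0.516 against 3.32 and 6.34 (-3.66 ± 0.60).

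Genes of the synovial lining differed in both directions. Of the 16 lining and sublining genes 8 were called higher and 3 lower, with a median of 1.04, inside the quartiles of all genes, and some single members had large folds. Prg4, which encodes the joint lubricant lubricin, had 13469 and 16770.3 CPM in the fat pad libraries and 1172 and 537 in the tendon libraries (4.15 ± 0.53, edgeR adjusted p = 0.000663). Has1, a hyaluronan synthase, had 342 and 247 against 2.37 and 0.976 (7.46 ± 0.74). Htra4, a secreted serine protease, had 1430.3 and 687 against 7.82 and 11.5 (6.78 ± 0.70). Hbegf, a ligand of the epidermal growth factor receptor, had 810.4 and 619.8 against 19.1 and 25.6 (5.00 ± 0.33), and the membrane protein Tspan15 had 514 and 444 against 17 and 14.5 (4.93 ± 0.24). In each of these 5 genes both fat pad libraries were above both tendon libraries. Such separation is common here, with libraries that did not overlap for 12 of the 16 list members and for 81.5% of all genes. Thy1, a marker of sublining fibroblasts, went the other way at 4.11 and 4.77 against 60.9 and 54.3 (-3.70 ± 0.22), and the sublining chemokine Cxcl12 overlapped at 190.4 and 334 and 374 and 274. The lubricin gene is also on the cartilage list, of which the other markers are given below.

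Macrophage genes were higher in the fat pad in 12 of the 16 tested of 18, with 1 lower and a median of 3.42. Vsig4, which takes up complement-coated particles, had 349 and 653 CPM against 1 and 0.632 and the largest fold of those tested (9.25 ± 0.50, edgeR adjusted p = 5.56e-05). Folr2, a folate receptor of resident macrophages, had 48.9 and 92.1 against 3.95 and 3.11 (4.32 ± 0.42), and Timd4, which binds dying cells, had 11.5 and 30.9 against 0.812 and 0.577 (4.92 ± 0.62). Trem2 had 45.5 and 67 against 3.89 and 4.04 (3.82 ± 0.65). Cx3cr1, known from macrophages of the synovium, had 20.8 and 56.4 against 3.93 and 3.05 (3.47 ± 0.59). Not every macrophage marker followed, since Siglec1 had 5.62 and 5.06 against 6.88 and 2.52, with overlapping libraries and no call, and Mertk, a receptor for dying cells, was lower at 10.3 and 10.1 against 28.2 and 14.3 (-1.06 ± 0.33). The Mertk call was lost without either fat pad library, without tendon library 1 and in the fit of 4 libraries.

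Of the 14 genes of antigen presentation on MHC class II, 10 were called higher and 0 lower, with a median of 2.73, and 2 and 1 in the TPM columns. H2-Ab1, the beta chain of I-A, had 586 and 747 CPM against 47.1 and 36.2 (4.0 ± 0.27, edgeR adjusted p = 7.92e-05), and the invariant chain Cd74 had 668 and 854 against 130.2 and 105 (2.69 ± 0.25). Chemokines and their receptors were higher in 17 of 27 tested and lower in 3, with a median of 3.40, and 11 and 5 in the TPM columns. Cxcl9, an interferon-induced attractant of T cells, had 37.7 and 60.7 against 2.24 and 1.48 (4.72 ± 0.41). Ccl6 and Ccl9, made by myeloid cells, had log2 fold changes of 4.22 ± 0.30 and 3.40 ± 0.40, and the receptor Ccr1 had 4.86 ± 0.49. Ccl21a, which draws dendritic cells into lymph vessels, was lower at 0.398 and 7.83 against 52.9 and 67.5 (-3.86 ± 1.10). Ccl21a has near-identical copies, so its count is uncertain.

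In the complement list 13 of 21 tested genes were called higher and 2 lower, with a median of 2.41. The 3 chains of C1q, which starts the classical pathway, were all higher, with C1qa at 311 and 544 CPM against 35.3 and 47.3 (3.37 ± 0.35), C1qb at 3.80 and C1qc at 4.11 on the log2 scale. Properdin, Cfp, which steadies the alternative pathway convertase, had 91.5 and 121 against 12.3 and 10.6 (3.21 ± 0.22), and factor B, Cfb, had 411 and 325 against 70.7 and 19.9 (3.02 ± 0.57). C5ar1 and C3ar1, the receptors of the released peptides, had 4.11 ± 0.35 and 4.08 ± 0.38. C7, a part of the membrane attack complex, was lower at 1.05 and 0.436 against 22.6 and 1.97 (-4.05 ± 1.10), and this call was lost without either fat pad library and without tendon library 1.

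Neutrophil granule genes gave the highest list median, 7.11, with 15 of 17 tested genes called higher and 0 lower. The higher count was 13 with the length offset and 2 in the TPM columns. Of the members named in the text, the TPM columns ended the calls of Prtn3 and S100a9, and other members are absent from those columns. S100a8, a calcium-binding protein stored in neutrophils, had 612 and 90.1 CPM in the fat pad against 0.18 and 0.247 in the tendon (10.67 ± 1.14, edgeR adjusted p = 0.000303). Ngp, a protein of secondary granules, had 580.5 and 70.9 against 0 and 0.055 (13.49 ± 1.56), and lactoferrin, Ltf, had 164 and 22.1 against 0 and 0.151 (10.27 ± 1.49). Mpo, the myeloperoxidase of primary granules, had 46.8 and 8.36 CPM in the fat pad and 0 counts in both tendon libraries, at least 690.0-fold higher if each tendon library is set to 3 counts. Fat pad library 1 was the higher one for each of these genes, and over the list library 2 was below it by a median of 2.47 on the log2 scale. Without fat pad library 1, the calls of Elane, Prtn3, Ctsg, Cebpe, Mmp8 and Cxcr2, all neutrophil genes on the list, were lost. The Cxcr2 call was lost also without tendon library 2, and those of Elane and Prtn3 with the length offset.

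Red cell genes followed the same pattern. Of 14 tested erythroid genes 11 were called higher and 1 lower, with a median of 6.68, or 6.48 with the gene at 0 held at its limit. The haemoglobin genes Hba-a1 and Hbb-bs had 17589 and 5729 CPM against 83 and 29.1 (7.70 ± 0.89) and 11151 and 3531 against 93.9 and 33.2 (6.85 ± 0.85). Each has a near-identical copy, Hba-a2 and Hbb-bt, so the split of counts within a pair is uncertain. Alas2, the haem synthesis enzyme of red cell precursors, had 442 and 112 against 2.76 and 0.948 (7.22 ± 0.87). Library 2 of the fat pad was below library 1 by a median of 1.79 on this list. Tfrc, the transferrin receptor used by all dividing and iron-hungry cells, went the other way at 10.4 and 5.42 against 192 and 206 (-4.65 ± 0.38).

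Of 14 tested B lineage genes 8 were called higher and 1 lower, with a median of 3.62 and fat pad library 2 below library 1 by 1.49. Without fat pad library 1 the count was 5, and in the TPM columns 0 were higher and 2 lower. Ms4a1, which encodes CD20, had 18.2 and 2.9 CPM against 0.116 and 0.055 (6.91 ± 1.35), while Jchain, made by plasma cells, was higher in fat pad library 2, at 13 and 59.8 against 0 and 0.192 (8.57 ± 1.29). Among 17 T, NK and mast cell genes 7 were higher and 1 lower, with 4 higher without fat pad library 1 and 1 higher in the TPM columns. Nkg7, a granule protein of killer cells, had 16.8 and 10.2 against 0.103 and 0.055 (7.38 ± 0.82), and Mcpt4, a mast cell protease, had 1.43 and 2.88 against 16.4 and 2.93 (-2.16 ± 0.76), a call lost without either fat pad library, without tendon library 1, in the fit of 4 libraries and with DESeq2's size factors or a replicate block. Of 20 cell division genes 10 were higher and 0 lower, and 1 and 3 in the TPM columns, again with fat pad library 1 above library 2, by 1.06. Ccnb1, a mitotic cyclin, had 7.73 and 3.09 against 0.747 and 0.412 (3.22 ± 0.71). By their medians, the neutrophil, red cell, B lineage, T, NK and mast cell, and cell division lists thus stood higher in fat pad library 1. Not every blood cell marker did, since Jchain was higher in library 2, as was the macrophage list, by a median of 0.60. The part of blood or marrow in the results was not tested.

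**Figure D4:**
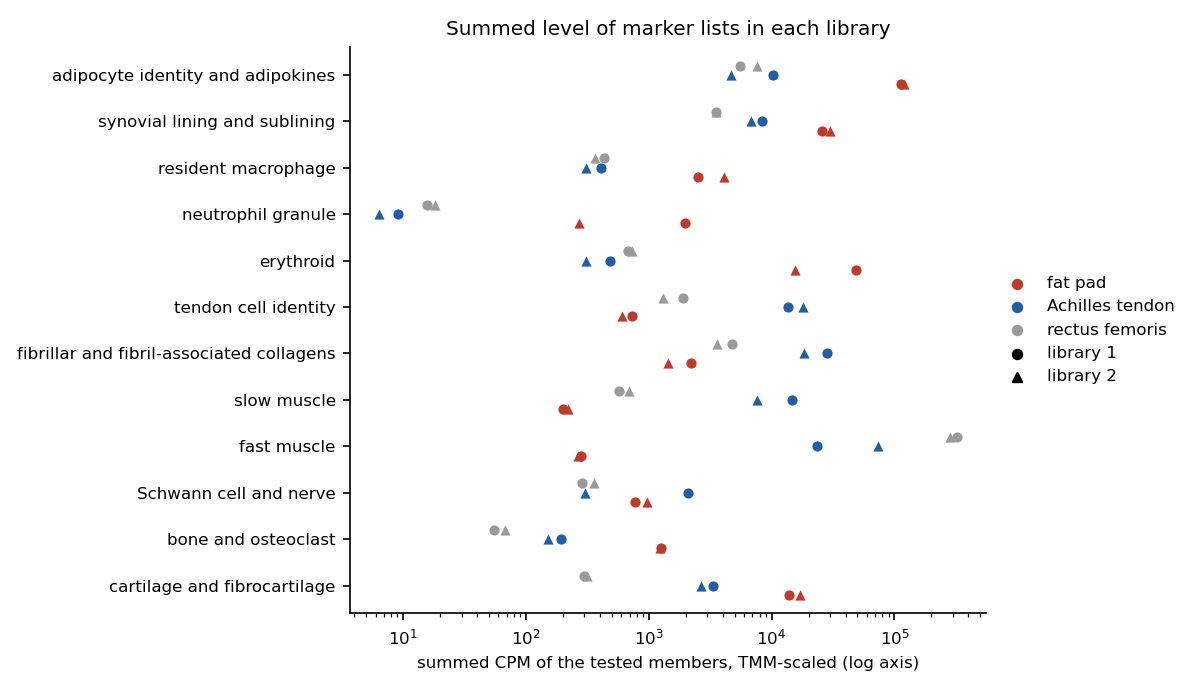
Summed TMM-scaled CPM, on a log axis, of the tested members of 12 marker lists in each library, with circles for library 1 and triangles for library 2. The fat pad libraries differ most for neutrophil granule and erythroid genes, and the tendon libraries for Schwann cell, fast muscle and adipocyte genes.

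Tendon cell genes were lower in the fat pad in 16 of 20, with 1 higher and a median of -4.93. Scx, the transcription factor scleraxis, had 0.929 and 2.17 CPM in the fat pad libraries and 32.9 and 68.7 in the tendon libraries (-5.03 ± 0.56, edgeR adjusted p = 0.000366). Mkx, the transcription factor Mohawk, had 0.476 and 0.365 against 28.2 and 47.8 (-6.50 ± 0.42), and Tnmd, the tenomodulin that marks mature tenocytes, had 10.2 and 10.5 against 229.5 and 347 (-4.80 ± 0.50). Fmod, the proteoglycan fibromodulin that controls fibril width, had 40.9 and 14.9 against 4246 and 7326 (-7.70 ± 0.73). Thbs4, a thrombospondin of the muscle and tendon junction, had 21.9 and 27.8 against 3118 and 3951 (-7.15 ± 0.46). Cilp2, a matrix protein of cartilage and tendon, had 2.81 and 1.16 against 913 and 765 (-8.73 ± 0.60), the lowest log2 fold change of the list members given here. The early growth response factors Egr1 and Egr2, which act on collagen genes in tendon, were not called (0.19 ± 0.34 and -0.79 ± 0.44), and Egr2 was called without fat pad library 2, at -1.49. With the length offset the counts stayed at 1 and 16 and the median was -5.58.

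Collagen genes were lower as well. Of 20 tested fibrillar and fibril-associated chains 15 were called lower and 0 higher, with a median of -2.82, and 13 lower with the length offset. Col1a1 and Col1a2, the chains of type I collagen, had 469.8 and 281 CPM against 9642 and 6219 (-4.40 ± 0.49) and 359 and 206 against 13141 and 8622 (-5.27 ± 0.53). Col3a1, the fine-fibril collagen of loose tissue, was not called at 1017 and 665 against 3274 and 1179 (-1.40 ± 0.52, edgeR adjusted p = 0.0528), and it was called lower with DESeq2, with total-count scaling, with a replicate block and without tendon library 2. The minor chains differed more. Col11a1, which nucleates fibrils, had 1.12 and 1.12 against 174 and 208 (-7.42 ± 0.34), and Col12a1, which sits on fibril surfaces, had 1.89 and 1.52 against 297 and 393 (-7.66 ± 0.30).

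Basement membrane and network collagens were lower in 15 of 19 and higher in 1, with a median of -2.34. Col4a1, the general basement membrane chain, had 153 and 149.6 CPM against 714 and 547 (-2.06 ± 0.25), and Col6a1, of the microfibrils around cells, had 183 and 134 against 767 and 725 (-2.24 ± 0.26). Col15a1, which lies between basement membrane and fibrils, had 2.93 and 4.41 against 239 and 119 (-5.61 ± 0.43). The exception was Col10a1, the collagen of hypertrophic cartilage, at 0.841 and 3.23 against 0.142 and 0.11 (4.0 ± 1.25), whose call was lost without fat pad library 2, without either tendon library and with a replicate block. Of 14 tested laminin, nidogen and heparan sulfate proteoglycan genes 13 were lower and 0 higher, and 9 lower with the length offset. These are long genes, with a median of 8779 exonic bases. Hspg2, which encodes perlecan, had 28.9 and 26.2 against 761 and 675 (-4.70 ± 0.30), and Lama2, the laminin chain of muscle and nerve, had 16.4 and 13.4 against 144 and 266 (-3.78 ± 0.36).

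Enzymes that modify and crosslink collagen were lower in 13 of 22 and higher in 0, with a median of -1.46. The lysyl oxidases, which crosslink collagen and elastin, were lower in all 5 of their members. Lox had 21.8 and 24.5 CPM against 472 and 386 (-4.21 ± 0.29, edgeR adjusted p = 8.41e-05) and Loxl2 had 6.27 and 7.67 against 182 and 177 (-4.68 ± 0.21), with Loxl1 at -1.33 ± 0.22, Loxl3 at -1.98 ± 0.23 and Loxl4 at -5.54 ± 0.52. Serpinh1, the collagen chaperone HSP47, had 52.7 and 74.9 against 315 and 491 (-2.66 ± 0.34). Several proteins of the same pathway were not called. Fkbp10, another chaperone, had 76.1 and 71.4 against 70.9 and 78.7, Plod1, a lysyl hydroxylase, 93 and 77.4 against 95.2 and 108, and Pcolce, which speeds procollagen cleavage, 344 and 342 against 315 and 464. Of these 3, Fkbp10 was called with the length offset.

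The elastic fibre list had 11 of 16 lower and 3 higher, with a median of -2.00. Eln, the gene of elastin, had 22.8 and 29.6 CPM against 293 and 196 (-3.22 ± 0.32), and fibrillin 1, Fbn1, had 26.8 and 46.5 against 384 and 241 (-3.09 ± 0.39). The 3 that were higher were Fbln5, a fibulin that guides elastin assembly, at 313 and 368 against 83.5 and 114 (1.79 ± 0.24), Mfap5, a microfibril protein, at 255 and 419 against 84.2 and 56 (2.26 ± 0.32), and the fibulin Efemp1 at 118 and 126 against 37.3 and 9.18 (2.39 ± 0.58), whose call was lost with the length offset. Of 15 small leucine-rich proteoglycans 8 were lower and 1 higher. Lumican, Lum, was the higher one, at 455 and 449 CPM against 126 and 69.1 (2.22 ± 0.31), while Prelp had 157 and 124 against 721 and 967 (-2.59 ± 0.27) and keratocan, Kera, had 4.34 and 1.16 against 125 and 247 (-6.08 ± 0.79). Decorin, Dcn, which binds collagen fibrils, was not called at 5223 and 6230.3 against 4248 and 3751 (0.52 ± 0.33). It was called higher with DESeq2, at 0.63, and with the length offset, at 1.01. Among 19 matricellular genes 13 were lower and 1 higher, with thrombospondin 1, Thbs1, at 5.83 and 8.38 against 595 and 837 (-6.65 ± 0.40) and tenascin C, Tnc, at 6.65 and 4.11 against 98 and 253 (-5.03 ± 0.53).

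Cartilage markers did not share a direction, with 6 of 19 tested higher, 8 lower and a median of -1.03. Acan, which encodes aggrecan, had 1.02 and 0.276 CPM against 5.33 and 1.84 (-2.47 ± 0.88), and Col2a1 had 4.19 and 1.35 against 7.79 and 32.6 (-2.87 ± 0.85), and both calls were lost without fat pad library 2 and with the length offset. The Acan call was also lost without tendon library 1 and in the fit of 4 libraries, and the Col2a1 call without tendon library 2. Sox5, a partner of the cartilage factor Sox9, was higher at 55.6 and 50.3 against 7.66 and 4.25 (3.15 ± 0.32), as was the secreted protein Cytl1 at 158 and 217 against 25.8 and 6.68 (3.53 ± 0.72). Chad, which encodes chondroadherin, was lower at 23 and 31.3 against 1794 and 1620.4 (-5.97 ± 0.33).

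Of 16 tested bone and osteoclast genes 6 were called higher and 0 lower, 4 and 1 with the length offset, and 1 and 4 in the TPM columns. Bglap and Bglap2, the osteocalcin genes, had 64.9 and 44.9 CPM against 0.0258 and 0.055 (10.36 ± 0.57) and 100 and 108 against 0.0644 and 0 (11.55 ± 0.63), and as near-identical copies they have uncertain counts. The osteoblast factor Sp7 was low in both tissues, at 0.465 and 1.02 against 0.18 and 0.206, and was not called. Ibsp, the bone sialoprotein, differed between the fat pad libraries, at 87.8 and 9.37 against 10.7 and 12.8, and was called only without fat pad library 2, at 2.89. Acp5, the acid phosphatase of osteoclasts and some macrophages, had 711 and 782 against 41.8 and 6.56 (4.95 ± 0.99). Among 21 matrix proteases and inhibitors 5 were higher and 8 lower, shares near those of all genes called (27.2% and 31.4%). Mmp2, the gelatinase of fibroblasts, had 175 and 138 against 416 and 662 (-1.79 ± 0.31), and the inhibitor Timp1 had 69.8 and 96.5 against 8.24 and 22 (2.46 ± 0.55), a call lost with the length offset.

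Muscle genes gave the lowest medians. All 14 slow fibre genes, all 15 fast fibre genes and all 20 tested genes shared by muscle fibres and their junctions were called lower in the fat pad, with medians of -8.74, -7.50 and -7.98, the last -7.63 with the gene at 0 held at its limit. Myh7, the slow myosin heavy chain, had 0.199 and 0.249 CPM in the fat pad and 4982 and 2547 in the tendon (-14.02 ± 0.99, edgeR adjusted p = 8.72e-05), and 1.79 and 6.12 in the rectus femoris. The summed slow fibre genes reached 14595 and 7638 CPM in the tendon libraries and 574 and 697 in the rectus femoris. Myh2, the fast oxidative myosin, had 0.553 and 1.47 against 6177 and 3145 (-12.16 ± 1.22). Myh4, the fastest myosin, had 13.2 and 8.15 against 596 and 19282 (-9.86 ± 1.84), so that the tendon libraries differed widely. Over the fast list tendon library 2 was above library 1 by a median of 1.59, and over the slow list it was below by 0.86. Acta1, skeletal muscle actin, had 110.2 and 110.1 against 12053 and 17202 (-7.05 ± 0.63). The tendon libraries thus held RNA of muscle genes, and a lower value in the fat pad of any gene that muscle also uses was measured against that mixture. The part of muscle in those genes was not tested.

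A further muscle gene, Trim72, which helps seal torn muscle membranes, was among the genes with the smallest p-values of the whole comparison. It had 0 counts in both fat pad libraries and 173 and 167 CPM in the tendon, at least 5686-fold lower. Myod1 and Myf5, transcription factors that commit cells to muscle, had 0 counts in both fat pad libraries, against 3.54 and 27.8 and 1.46 and 1.03 CPM in the tendon, at least 524-fold and 41.5-fold lower. Pax7, the satellite cell factor, had 0.177 and 0.196 against 2.29 and 2.31 (-3.61 ± 0.47). Of 11 tested satellite cell and myogenic genes 8 were lower and 2 higher. Those 2 were Megf10, an engulfment receptor, at 23.8 and 18.4 against 3.53 and 8.48 (1.81 ± 0.43), and the fusion gene Mymk at 1.23 and 2.08 against 0.271 and 0.151 (2.96 ± 0.87), whose call was lost without fat pad library 2, without tendon library 2 and with the length offset.

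The promoters of these lists were read for 4 short motifs in the 250 bases before each RefSeq start on GRCm38.p6, on both strands. The hexamer CAGCTG, an E-box form bound by myogenic factors, was found for 18 of the 37 genes of the 3 muscle lists that have a promoter in the table (48.6%), against 14.7% of all 27025 genes there. TTGCNNAA, a core of sites for the C/EBP factors, was found for 6 of 15 neutrophil granule genes (40.0%) and 4 of 13 adipocyte genes (30.8%), against 10.8%. The TATA box form TATAAA was found for 8 of the 37 muscle genes (21.6%) against 14.3%. The outer letters of the MEF2 site, CTA and TAG, were searched with any 4 bases between them, which is looser than the site itself. This string was found for 3 of the 37 (8.11%) and for 4 of 13 fibrillar collagen genes (30.8%), against 3.7%. The hexamer was also found for 4 of these 13 collagen genes (30.8%), 3 of the 13 adipocyte genes and 1 of the 15 neutrophil genes, and the C/EBP core for 6 of the 37 muscle genes (16.2%). These are matches of letters, with no test. The promoters of Mb, which encodes myoglobin, and of Chrna1, a subunit of the acetylcholine receptor, show the hexamer, and those of Ngp and S100a9, neutrophil genes with large folds, show the C/EBP core, each in capitals, 5′ to 3′. They lie at chr15:77022788-77023037 (minus strand) for Mb, chr2:73580339-73580588 (minus strand) for Chrna1, chr9:110419558-110419807 (plus strand) for Ngp and chr3:90695722-90695971 (minus strand) for S100a9, on GRCm38.p6, which is the build of the promoter table and not that of the counts.
Mb: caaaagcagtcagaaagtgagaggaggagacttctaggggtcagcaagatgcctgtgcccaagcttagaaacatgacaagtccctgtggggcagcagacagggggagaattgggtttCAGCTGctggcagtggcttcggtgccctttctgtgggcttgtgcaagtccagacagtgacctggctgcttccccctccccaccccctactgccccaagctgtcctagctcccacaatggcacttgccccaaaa
Chrna1: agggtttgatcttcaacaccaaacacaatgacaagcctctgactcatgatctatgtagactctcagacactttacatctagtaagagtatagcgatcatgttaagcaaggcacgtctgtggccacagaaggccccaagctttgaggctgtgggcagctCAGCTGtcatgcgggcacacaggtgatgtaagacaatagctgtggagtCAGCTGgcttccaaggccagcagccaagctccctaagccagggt
Ngp: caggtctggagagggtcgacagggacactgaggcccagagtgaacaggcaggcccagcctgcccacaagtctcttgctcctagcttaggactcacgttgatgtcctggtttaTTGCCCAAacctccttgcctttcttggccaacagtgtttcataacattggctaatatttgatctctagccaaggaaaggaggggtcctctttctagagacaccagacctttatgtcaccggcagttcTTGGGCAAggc
S100a9: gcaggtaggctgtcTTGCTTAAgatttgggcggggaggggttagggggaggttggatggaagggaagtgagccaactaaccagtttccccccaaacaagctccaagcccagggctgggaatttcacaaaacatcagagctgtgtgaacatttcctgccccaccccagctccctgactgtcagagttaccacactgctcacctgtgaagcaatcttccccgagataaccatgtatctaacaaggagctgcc

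Mb had 5.54 and 4.62 CPM in the fat pad and 3197 and 2266 in the tendon (-9.07 ± 0.45), and Chrna1 had 0.0885 and 0 against 8.49 and 4.43 (-7.26 ± 0.88). S100a9, the partner of S100a8, had 248 and 29.2 against 0 and 0.357 (9.61 ± 1.52), with fat pad library 1 again the higher one.

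Energy genes differed by isoform rather than as a block. Of 25 genes of glycolysis and glycogen use 17 were called lower and 5 higher, with a median of -1.53, and 11 were lower without either fat pad library in turn. The muscle isoforms were lower, with phosphofructokinase Pfkm at 19.3 and 16.9 CPM against 691 and 1911 (-6.17 ± 0.62), enolase Eno3 at 14.9 and 16.9 against 803 and 2809 (-6.83 ± 0.75), and glycogen phosphorylase Pygm at 11.6 and 11.1 against 859.6 and 3134 (-7.45 ± 0.79). The isoforms of other tissues were higher, with Pfkl at 82.4 and 93.8 against 32 and 26.8 (1.58 ± 0.20), Eno1 at 402 and 604 against 91.6 and 86 (2.50 ± 0.26), and Pygl at 157 and 159 against 32.3 and 5.22 (3.07 ± 0.82), a call lost without fat pad library 2. Pgam1 and Pgam2, the general and the muscle phosphoglycerate mutase, had 1.98 ± 0.19 and -6.16 ± 0.62. In all 4 of these enzymes, then, the muscle form was lower and another form higher.

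Respiratory chain genes encoded in the nucleus were called higher in 12 of 28 and lower in 3, with a median of 0.57. With the length offset the counts were 5 and 8 and the median was 0.08, and in the TPM columns the counts were 7 and 16. These are short genes, with a median of 2166 exonic bases, and their direction as a group therefore rests on how length is handled. The isoform pair of subunit VIa kept both directions, with Cox6a1, the general form, at 805 and 986 CPM against 63.8 and 49 (3.99 ± 0.27) and Cox6a2, the heart and muscle form, at 1.37 and 3.4 against 287 and 307 (-6.96 ± 0.53). Ndufa1, a small subunit of complex I, had 564 and 594 against 37.5 and 49.5 (3.73 ± 0.27). Ndufs1, the largest subunit of its core, was not called at 208 and 175 against 237 and 237 (-0.31 ± 0.22).

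Vessel genes were mostly lower, with 12 of 22 endothelial and lymphatic genes called lower and 4 higher and a median of -0.94. Cdh5, the endothelial cadherin, had 11 and 10.2 CPM against 165 and 176 (-4.00 ± 0.21, edgeR adjusted p = 5.56e-05), while Plvap and Egfl7, also endothelial, overlapped at 158 and 124 against 148 and 139 and 104 and 104 against 98.4 and 113. Plvap was called lower with the length offset, at -0.93. Gpihbp1, which carries lipoprotein lipase across capillaries, was higher at 279.5 and 288 against 35.2 and 50.0 (2.74 ± 0.24). The lymphatic factors Prox1 and Flt4 were lower, at 0.708 and 0.622 against 24.4 and 7.97 (-4.60 ± 0.59) and 1.33 and 1.67 against 41 and 21.5 (-4.38 ± 0.41). Lyve1, shared by lymphatic vessels and macrophages, was higher at 127 and 167 against 33.9 and 22.1 (2.39 ± 0.26). Smooth muscle and pericyte genes were lower in 9 of 16 and higher in 0, with 14 lower in the TPM columns, among them Pdgfrb at 25.7 and 26 against 172 and 168 (-2.72 ± 0.18).

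Schwann cell genes differed most between the tendon libraries. Of 16 genes 7 were lower and 2 higher, and tendon library 2 was below library 1 by a median of 2.98 on the log2 scale. The lower count was 4 without tendon library 1, without fat pad library 1 or with a replicate block, 13 in the TPM columns and 12 when tendon library 2 was left out. Prx, which encodes periaxin of the myelin sheath, had 1.27 and 0.96 CPM against 148 and 12.4 (-6.17 ± 1.14). The calls of the myelin gene Mbp, the factor Sox10 and Ncmap were lost without tendon library 1, and also without either fat pad library and with a replicate block. The Mbp call was lost too with the length offset and in the fit of 4 libraries. Of 8 tested epidermis genes, a check for skin in the samples, 2 were higher and 2 lower, shares near those of all genes called (27.2% and 31.4%). In the TPM columns 1 was higher and 5 lower. S100b, a Schwann cell marker also found in adipocytes, was higher at 34.7 and 63.1 against 8.19 and 3.89 (3.02 ± 0.46).

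Among 28 tested Wnt pathway genes 18 were lower and 3 higher, with a median of -1.88. Wif1, a secreted Wnt inhibitor, had 8.19 and 3.82 CPM against 107 and 128 (-4.30 ± 0.63), the receptor Fzd9 had 1.15 and 0.854 against 83.6 and 39.5 (-5.94 ± 0.44), and Axin2, a widely used target gene of the pathway, had 1.25 and 0.863 against 16.9 and 12.6 (-3.81 ± 0.34). Rspo2, which amplifies Wnt signals, stood out in the other direction at 62.1 and 69.5 against 0.799 and 0.66 (6.49 ± 0.53, edgeR adjusted p = 0.000128). Sfrp4, a secreted decoy receptor, was higher too, at 257 and 97.5 against 45.6 and 17.1 (2.50 ± 0.58).

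In the TGF-beta and BMP list 21 of 35 genes were lower and 1 higher, with a median of -1.46. Of the ligands Tgfb1, Tgfb2 and Tgfb3, Tgfb1 had the largest difference, at 1.35 and 1.81 CPM against 37.9 and 35.5 (-4.54 ± 0.25), with the others at -2.15 ± 0.35 and -2.59 ± 0.24. Their receptors Tgfbr1, Tgfbr2 and Tgfbr3 had -1.46 ± 0.23, -1.95 ± 0.19 and -2.75 ± 0.21. Mstn, which encodes the muscle growth inhibitor myostatin, had 0 and 0.116 against 2.19 and 27 (-7.82 ± 1.48). Among 30 tested genes of IGF, FGF and PDGF signalling 17 were lower and 2 higher. Igf1 was higher at 263 and 253 against 151 and 96.2 (1.06 ± 0.26) and Igf2 lower at 4.23 and 3.94 against 55.4 and 36 (-3.48 ± 0.26). Vegfa, the vessel growth factor, had 13.5 and 15.2 against 280.3 and 160.4 (-3.94 ± 0.36). Of 17 genes of mechanical sensing 12 were lower and 0 higher, with the stretch-gated channel Piezo1 at 15.7 and 6.35 against 98.7 and 108 (-3.23 ± 0.42) and the co-activator Yap1 at 12.3 and 11.5 against 107 and 131 (-3.32 ± 0.20).

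Of 21 tested genes of steroid receptors and enzymes 8 were higher and 2 lower, with a median of 1.12, and 5 and 8 in the TPM columns. Esr1, the oestrogen receptor alpha, was not called, at 25.6 and 17.6 CPM against 35.2 and 17.9 (-0.30 ± 0.34, edgeR adjusted p = 0.475), and the libraries overlapped. Cyp19a1, which encodes aromatase, the target of letrozole, was listed in the fat pad counts alone, with 0 counts in both libraries, which allows up to 0.0361 and 0.0282 CPM, and was not tested. Other enzymes that convert steroids were called. Hsd11b1, which regenerates active glucocorticoid, had 187 and 212 against 10.6 and 3.53 (4.81 ± 0.53), and Hsd17b12, which also lengthens fatty acids, had 314 and 361 against 33.4 and 19.1 (3.68 ± 0.34). Hsd17b11, a droplet-associated relative, was lower at 5.39 and 7.4 against 32.2 and 29.7 (-2.27 ± 0.24). The glucocorticoid receptor Nr3c1 was lower at 83.7 and 77.6 against 178 and 167 (-1.10 ± 0.21), a call lost with the length offset. Of 14 genes known to respond to that receptor 4 were higher and 4 lower, shares near those of all genes called (27.2% and 31.4%). In the TPM columns the counts were 2 and 7. Among the called were Mt1, a metallothionein, at 303 and 348 against 44.7 and 34.8 (3.03 ± 0.28), and Pdk4, which shifts fuel use from glucose to fat, at 37.4 and 43 against 385 and 488 (-3.44 ± 0.27).

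Of 29 tested genes of prostanoids, leukotrienes and pain mediators 12 were higher and 3 lower, with a median of 1.33, and 6 and 7 in the TPM columns. Ptgs2, the inducible cyclooxygenase, was low in both tissues at 0.465 and 0.0711 CPM against 0.966 and 0.838. Its constitutive relative Ptgs1 had 27.9 and 25.3 against 21.8 and 18.4, and neither was called. Ptgs1 was called higher with DESeq2, at 0.51. Without fat pad library 1 Ptgs2 was called lower, at -3.57. The enzymes downstream differed by product. Hpgds and Tbxas1, which make prostaglandin D2 and thromboxane, were higher at 38.8 and 46.4 against 3.43 and 2.79 (3.77 ± 0.25) and 34.7 and 74 against 2.46 and 1.76 (4.69 ± 0.44). Ptgis, which makes prostacyclin, was lower at 6.75 and 4.21 against 128 and 118 (-4.49 ± 0.28). The leukotriene enzymes Alox5 and Ltc4s were higher, at 39.7 and 57.1 against 4.91 and 5.17 (3.26 ± 0.25) and 64.9 and 97.9 against 5.6 and 2.23 (4.38 ± 0.63). Ntrk2, a receptor for the neurotrophin BDNF, had 153 and 281 against 93.6 and 55.1 (1.54 ± 0.42), and this call was lost without fat pad library 2 and without tendon library 2.

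Patterning genes of the limb, which keep a record of position, were lower in 10 of 21 tested and higher in 1. Hoxc11, a posterior Hox gene, had 0 counts in both fat pad libraries and 10.7 and 9.17 CPM in the tendon, at least 331-fold lower, and Hoxd11 had 0 and 0.0622 against 2.24 and 2.64 (-6.15 ± 1.39). Hoxc10 was lower at 9.72 and 7.59 against 27.6 and 41.2 (-1.99 ± 0.25), Hoxa10 was not called at 22.5 and 28.7 against 33.7 and 35.7 (-0.44 ± 0.19), and Hoxc8 was higher at 4.5 and 2.48 against 0.683 and 0.838 (2.20 ± 0.49). Hoxa10 was called lower with total-count scaling, at -0.65, and with the length offset, at -0.78. Without fat pad library 2 its log2 fold change was -0.63. Tbx15, a factor of skeletal and adipose development, was lower at 40.6 and 21.4 against 124 and 153 (-2.16 ± 0.34).

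Of 23 immediate early and heat shock genes 12 were lower and 3 higher, and 15 and 1 with the length offset, with Nr4a1, an early response receptor, at 4.4 and 11.2 CPM against 79.6 and 146 (-3.86 ± 0.52) and Fos overlapping at 29.9 and 29.9 and 27.1 and 67. Fos was called lower with the length offset, at -1.41, and its log2 fold change was -1.12 without tendon library 1. Of 19 clock genes 7 were lower and 0 higher, a share near that of all genes called lower (31.4%), with 12 lower without fat pad library 1 and 15 in the TPM columns, and the fat pad libraries differed from each other. Dbp, a strongly cycling output factor, had 108 and 7.25 in the fat pad and 19.6 and 18 in the tendon, so that 1 fat pad library lay above and the other below both tendon libraries. The log2 fold change of Dbp was 1.62 and not called, -1.31 without fat pad library 1 and 2.51 without fat pad library 2. Arntl, the clock activator BMAL1, had 3.23 and 23.7 against 39.2 and 52.7 and was not called (-1.77 ± 0.77). Without fat pad library 2 it was called lower, at -3.84. Of 14 tested interferon response genes 6 were higher and 0 lower, with 10 higher by DESeq2, 11 in the fit of 4 libraries and 3 in the TPM columns, and Oas1a at 18 and 21.5 against 1.61 and 2.24 (3.36 ± 0.63). The times of sampling are not in the labels, and their part in these values was not tested.

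The genes with the largest differences in CPM restate these groups. Apart from adipocyte, lubricin and haemoglobin genes, the highest in the fat pad included Car3, a carbonic anhydrase abundant in adipocytes, at 30438 and 32658 CPM against 3417 and 2207 (3.49 ± 0.51). Gpx3, a secreted glutathione peroxidase, had 8063 and 10766 against 647 and 845 (3.66 ± 0.39), B2m, the light chain of MHC class I, had 6481 and 7395 against 273 and 231 (4.78 ± 0.36), and Lyz2, the lysozyme of myeloid cells, had 4347 and 6587 against 186 and 198 (4.83 ± 0.39). The lowest were muscle and collagen genes, among them Atp2a1, the calcium pump of fast fibres, at 21.3 and 8.37 against 5778 and 14834 (-9.44 ± 0.98), Ckm, muscle creatine kinase, at 15.7 and 18.2 against 2960.3 and 7728 (-8.30 ± 0.77), Ttn, the giant sarcomere protein titin, at 17.6 and 11.6 against 4373 and 6262 (-8.51 ± 0.56), and Tpm1 at 119 and 113 against 2457 and 7254 (-5.39 ± 0.69).

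**Figure D5:**
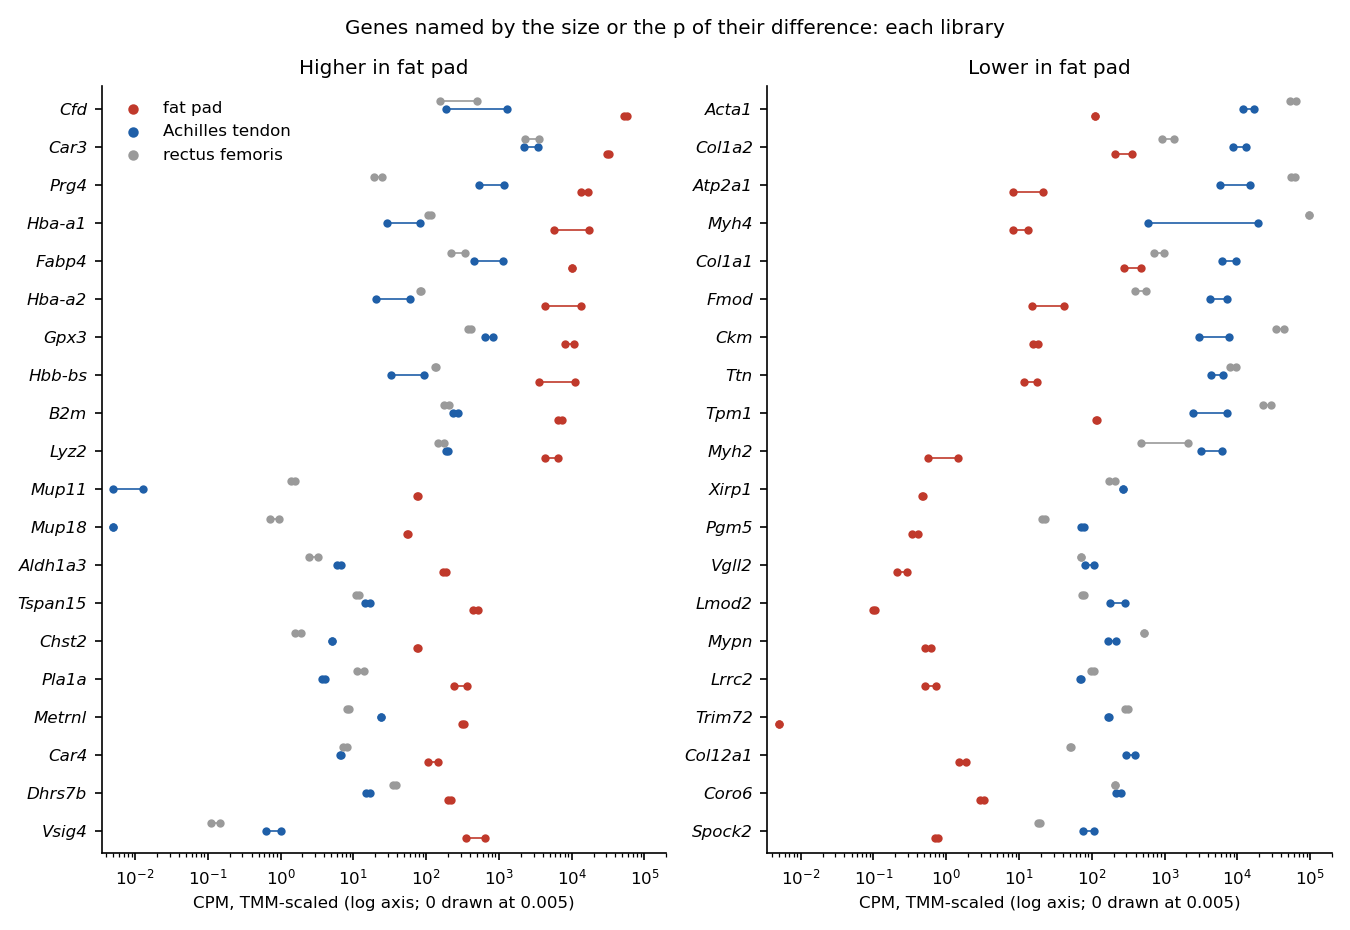
TMM-scaled CPM on a log axis, 0 drawn at 0.005, of the genes with the largest difference in CPM or the smallest p in each direction, in each of the 6 libraries with 2 joined points per tissue. The genes were chosen among those whose fat pad and tendon libraries do not overlap, and Mup18 and Trim72 are at 0 in both libraries of 1 tissue.

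The genes with the smallest p-values and at least 50 CPM formed the other named set. In the fat pad these included Pla1a, a phospholipase, at 239 and 366 CPM against 3.71 and 4.14 (6.27 ± 0.32), Aldh1a3, which makes retinoic acid, at 188 and 169 against 5.93 and 6.68 (4.83 ± 0.23), and Metrnl, a secreted factor of fat and muscle, at 327 and 315 against 24.2 and 24.2 (3.73 ± 0.19). Chst2, a sulfotransferase, had 75.4 and 77.8 against 5.15 and 5.18 (3.89 ± 0.20), Car4, a membrane-bound carbonic anhydrase, 145 and 107 against 6.83 and 6.57 (4.23 ± 0.22), and Dhrs7b, a peroxisomal enzyme of ether lipid synthesis, 201 and 220.3 against 14.9 and 17.1 (3.72 ± 0.20). Mup18, a major urinary protein, had 56.6 and 53.9 CPM in the fat pad and 0 counts in both tendon libraries, at least 1383-fold higher. Mup11 had 74 and 76.5 CPM in the fat pad and a single count over both tendon libraries, and no fold is given. The major urinary protein genes are near-identical copies, so which of them was counted is uncertain. Among the lower genes were Spock2, a proteoglycan, at 0.763 and 0.694 against 75.3 and 109 (-6.98 ± 0.28), and the muscle genes Xirp1, Pgm5, Vgll2, Lmod2, Mypn, Lrrc2 and Coro6, with log2 fold changes of -9.15, -7.62, -8.54, -11.12, -8.39, -6.83 and -6.25. Their adjusted p was 5.56e-05 by edgeR in each case.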

How the data were processed

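Read counts per Ensembl gene and TPM per protein-coding gene were deposited by the authors, for each tissue in files of its own. Per the submitters' processing notes, Bowtie2, RSEM 1.3.1, DESeq2 1.4.5 and GRCm39 were used; which tool made which column, the strand setting and the annotation could not be read from the labels or headers. The 20516 genes of the fat pad counts and the 17120 of the tendon counts were joined by identifier. Symbols came from the authors' tables for 16734 of the 16964 joined genes and from a names table for 230.

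Genes were filtered with filterByExpr and tested with edgeR 4.0.16 in R 4.3.3 (TMM factors, quasi-likelihood test, all 6 libraries, 3 residual degrees of freedom, a common coefficient of variation of 0.336), with Benjamini-Hochberg adjustment over the 15856 genes. The SE is the log2 fold change over the root of F. A fold against a tissue at 0 in both libraries used 3 counts per library. With 2 libraries per tissue an exact permutation test of a single gene cannot reach the threshold, and none was run. Libraries of the same tissue differed by far more than sampling noise (chi-square per degree of freedom 318 in fat pad and 528 in tendon), so none was taken as a repeat of another. The script was tested on simulated data.

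Gene lists and the genes described were chosen with earlier results of these data known. Beside list members, the genes named were those called with libraries that do not overlap, leaving out predicted, mitochondrial and antigen receptor genes: the 10 with the largest difference in mean CPM in each direction, and the 10 with the smallest p in each direction where the higher tissue averaged 50 CPM or more. Of genes in only 1 tissue's counts, the 5 with the highest mean CPM were named. Exonic lengths came from GENCODE M21, with a length for 15830 genes. Promoters and their motifs came from RefSeq on GRCm38.p6 and were chosen after the expression values were seen. A list of sex-linked genes had no tested member, and some members of other lists are not reported here.

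Alternatives were DESeq2 size factors, total-count scaling, no filter, DESeq2 1.42.0, the 4 libraries alone, a replicate block, each fat pad or tendon library left out, the TPM columns on a log2 scale with limma 3.58.1 at pseudocounts of 1 and 0.1, and the length offset.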

Additional observations from a re-analysis of the deposited data

Results flagged for a closer look

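Genes listed in the counts of only 1 of the tissues could not be tested. Those with the highest mean CPM, scaled by library total, had means above the limit that a count of 0 allows. In the fat pad counts alone, Lypd8l had a mean of 31.1 CPM, from 11.2 and 51.0 in libraries 1 and 2. Epx, the peroxidase of eosinophils, had a mean of 9.15 CPM, from 18.1 and 0.188, and Ear1, an eosinophil ribonuclease, had a mean of 7.11 CPM, from 13.5 and 0.705. Olfr643 and Olfr64, olfactory receptor genes, had means of 5.73 CPM, from 11.3 and 0.113, and 4.64 CPM, from 9.09 and 0.188. The means of Epx, Ear1, Olfr643 and Olfr64 thus came almost wholly from fat pad library 1. In the tendon counts alone, Prr7 had a mean of 1.47 CPM, from 1.74 and 1.19, and Pcdhga10 of 1.35, from 0 and 2.69. Syna had a mean of 1.19 CPM, from 1.95 and 0.435, Sectm1b of 0.577, from 0.864 and 0.290, and Gpc2 of 0.478, from 0.457 and 0.499.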

How the results depend on the processing

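With 2 libraries per tissue, a call rests on a spread shared over genes and tissues, and leaving out a library assumes that the lone one varies like the rest. The counts of genes higher and lower in the fat pad (4308 and 4972) stayed within 1.5 times under every alternative on the counts, from 3501 to 5047 higher and from 4324 to 5449 lower. DESeq2 called 5047 and 4987, its size factors in edgeR gave 4648 and 4688, scaling by totals 3671 and 5449, and the length offset, chosen after seeing the data, 4008 and 4472. Leaving out 1 fat pad or tendon library at a time gave 3501 to 4104 higher and 4324 to 4592 lower.

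The TPM columns moved both counts, to 1618 higher and 8054 lower with limma at a pseudocount of 1, 1555 and 7977 at 0.1, and 1603 and 8106 without a filter, and the cause was not tested. Of the 211 genes described in the text as called, 189 lost no call under the alternatives on counts, and 174 lost none with TPM either. A gene absent from an alternative was counted as losing no call there, as with Trim72, which has no values in the joined TPM columns. At a pseudocount of 1 the TPM columns ended the calls of Ccnb1, Cd74, Cx3cr1, Cytl1, Hoxc8, Jchain, Lyve1, Megf10, Ms4a1, Mymk, Ntrk2, Pfkl, Prtn3, S100a9, S100b and Sfrp4. Cpt1a turned from -0.08 to 0.64 with the length offset, which removes a trend with length by construction. Dbp turned from 1.62 to -1.31 without fat pad library 1 and was 2.51 without fat pad library 2.

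A replicate block by library number called 3979 genes higher and 4671 lower. Deviations of same-numbered libraries had r = 0.034 for fat pad and tendon and r = -0.388 for tendon and rectus femoris, over 9667 genes. With 2 libraries per tissue these values cannot tell whether the numbers pair samples, and the labels name no shared animal.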
